A study of Mus musculus with 15 samples.

Results

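The cytosolic ribosomal protein genes were followed through the last steps of CD4 T cell development in the mouse thymus. Members were genes whose symbol in the annotation of the array platform is that of a protein of the large subunit (Rpl), the small subunit (Rps and Rpsa) or the stalk (Rplp0, Rplp1 and Rplp2). Kinase genes with similar names were left out, as were probe sets that name several genes, and each gene was read from its probe set of highest mean signal. This gave 46 of the 18194 genes with a probe set of their own, of which 22 belong to the large subunit, 22 to the small subunit and 2 to the stalk. A total of 43 members passed the filter on dim probe sets (above the median of the array on at least 3 arrays) among 11872 genes tested. The single-gene probe sets of Rpl3l, Rps4l and Rps16 did not pass. A further 28 ribosomal protein genes, Rplp1 among them, had only probe sets shared with other genes and are described as a group.

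Each cytosolic ribosome joins a small subunit, which reads the mRNA, to a large subunit, which forms the peptide bond, and the stalk on the large subunit recruits translation factors. Cells make the ribosomal proteins in matched amounts, and their mRNAs share a short pyrimidine tract at the 5′ end through which the kinase mTORC1 controls their translation. Ribosome production is known to follow growth signals, MYC among them, and in thymocytes growth and division slow at the double-positive stage and change again after selection.

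The 5 groups had 3 arrays each, all from thymocytes of young adult C57BL/6 mice. Double-positive cells came from B2m-/- mice, which lack MHC class I, so that CD4 cells restricted by MHC class II are the ones selected. PreDP were their CD69- TCRβ- cells, sorted before selection, and PostDP their CD69+ TCRβ+ cells, sorted after it. Tak1-deficient SM&M1 were Qa2- CD69+ cells, CD4 single-positive by their source label, of Tak1f/f CD4Cre mice, in which Cre acts in cells that have expressed Cd4. SM&M1 were Qa2- CD69+ CD4 single-positive cells and M2 the more mature Qa2+ CD69- cells, both from Rag2-GFP BAC transgenic mice. For SM&M1 and M2, cells positive for NK1.1, CD25 or GL3 were gated out and the GFP gate removed recirculating cells, while no such gate is stated for the Tak1-deficient cells. The difference of genotype between PostDP and SM&M1, and that of the gates between Tak1-deficient SM&M1 and SM&M1, cannot be told apart from stage and from loss of Tak1. Samples are labelled as biological replicates without naming separate animals, so the p-values rest on the spread of these samples alone.

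Signals are given as log2(signal + 16) of the deposited intensities, and a difference is a difference of group means on that scale ± SE of the limma fit, which understates the change of dim genes. Called genes are those with an adjusted p below 0.05 (Benjamini-Hochberg over all genes tested). The deleted gene Map3k7, which encodes TAK1, was 5.03 ± 0.29 log2 units lower in Tak1-deficient SM&M1 than in SM&M1 (adjusted p = 2.2e-06), and the selection marker Cd69 was 4.18 ± 0.36 log2 units higher in PostDP than in PreDP (adjusted p = 4.1e-06). Cd8a was 4.95 ± 0.43 log2 units lower in SM&M1 than in PostDP (adjusted p = 1.1e-05), and B2m was 4.26 ± 0.18 log2 units higher (adjusted p = 2.7e-08). The sex-linked genes Xist and Eif2s3y had an SD of 3.70 and 4.32 in PreDP, 3.61 and 4.15 in PostDP, and 3.77 and 4.10 in Tak1-deficient SM&M1. Their SD was 0.28 and 0.53 in SM&M1 (means 13.46 and 10.21) and 0.36 and 0.57 in M2 (means 13.37 and 10.44). The part of sex in the differences between groups was not tested. Replicate 2 of the Tak1-deficient cells stood apart from the other 14 arrays. Its median signal was 168 against 80.5 to 121 on the others, and the ratio of 3′ to 5′ Actb signal was 1.62 against 1.02 to 1.18. Results of the Tak1-deficient comparison that rest on this array are given with and without it. The array also enters the spread of the other comparisons. Without it, 2 of 43 members and 25.2% of all genes were called between PostDP and PreDP, and 0 members and 5.66% of all genes between M2 and SM&M1.

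Promoters of the genes that the results turn on are shown first, with 2 bright members, Rps18 and Rplp2, for comparison. The sequences are from RefSeq (GRCm38.p6), run 5′ to 3′ on the strand of the gene and cover 30 bases before the annotated start and 30 from it. The longest pyrimidine run near the start is in capitals.
Rpl12 (chr2:32961682-32961741, plus strand): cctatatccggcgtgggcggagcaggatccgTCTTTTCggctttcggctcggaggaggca
Rpl14 (chr9:120571487-120571546, plus strand): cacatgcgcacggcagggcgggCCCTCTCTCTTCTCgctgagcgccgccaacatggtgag
Rps6 (chr4:86857338-86857397, minus strand): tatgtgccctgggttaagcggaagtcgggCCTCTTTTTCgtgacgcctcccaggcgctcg
Rps25 (chr9:44407684-44407743, plus strand): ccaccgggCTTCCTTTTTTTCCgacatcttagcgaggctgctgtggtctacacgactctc
Rps18 (chr17:33955636-33955695, minus strand): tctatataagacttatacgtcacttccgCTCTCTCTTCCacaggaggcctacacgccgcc
Rplp2 (chr7:141447621-141447680, plus strand): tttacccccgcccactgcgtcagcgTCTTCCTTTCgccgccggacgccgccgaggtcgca

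RefSeq promoters were matched for 40 of the 46 members, 48 promoters in all. A run of at least 6 pyrimidines that lay in or reached into the 10 bases on either side of the start was present in 26 of the 48 (54.2%), against 29.2% of 32851 mouse promoters. A C at the start itself followed by 4 pyrimidines, the form of the tract in the mature mRNA, was present in 8 of 48 (16.7%), against 2.51% of all promoters. The letters CCGGAA on either strand (read as CCGGAA or TTCCGG), which contain the core bound by ETS factors, were present within 250 bases before and 50 after the start in 26 of 48 (54.2%), against 14.9% of all promoters. The letters TATAAA on either strand (TATAAA or TTTATA) were present in 5 of 48 (10.4%), against 13.6% of all promoters. These are matches of letters in a fixed window and do not show a bound site.

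Most members were among the brightest probe sets of the arrays. Of the 43 tested, 33 had a mean above 13 log2 units, while the brightest 1% of all probe sets began between 13.2 and 13.6 on each array. Rps29 (mean over 15 arrays 14.89), Rpl13a (14.79) and Rpl38 (14.71) had the highest probe set signals. Among the others, Rps6, Rps25, Rpl12, Rps27, Rpl27a, Rpl14, Rpl39 and the paralog Rpl39l had means between 7.39 and 11.17. Signals of different probe sets are not amounts of mRNA, so this order is not one of transcript levels. The muscle paralog Rpl3l stayed between 4.29 and 5.37 on every array. Rps4l, a paralog of Rps4x, was at 7.08, 5.10 and 6.49 in PreDP, and between 4.31 and 5.50 on the 12 arrays of the other groups. The single-gene probe set of Rps16 was dim on every array (4.21 to 6.14), while both probe sets that name Rps16 with other genes were bright (means 14.67 and 14.50), so the dim one does not give the level of this gene. All members called in the main fit were also read from probe sets dimmer than the brightest ones that name them with other genes. These were Rpl12 (10.55 beside 14.67), Rpl14 (9.19 beside 14.23) and Rps6 (11.17 beside 14.52). No member with a mean above 13 was called in any of the 4 comparisons.

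Within a group, the members moved together from array to array. The median of the 43 members was 14.47, 13.97 and 13.93 in PreDP, 14.15, 13.94 and 14.08 in PostDP, 14.03, 15.24 and 13.99 in Tak1-deficient SM&M1, 14.05, 14.24 and 14.70 in SM&M1, and 14.26, 14.42 and 14.76 in M2. The groups overlapped in this median, except that all M2 arrays lay above all PostDP arrays. In Tak1-deficient SM&M1, 36 of 43 members were highest in replicate 2, in M2 40 of 43 were highest in replicate 3, in SM&M1 37 were highest in replicate 3, and in PreDP 38 were highest in replicate 1. The SD of a member over the 3 SM&M1 arrays had a median of 0.335 log2 units, and 0.066 after the array's median over the members was taken off. The same step took the median SD to 0.068 in M2 (0.248 before) and to 0.089 in PreDP (0.278 before). The 43 tested members held 1.87% to 3.81% of the summed signal of an array, with the highest share on replicate 2 of Tak1-deficient SM&M1. What moved the arrays was not tested.

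**Figure D1:**
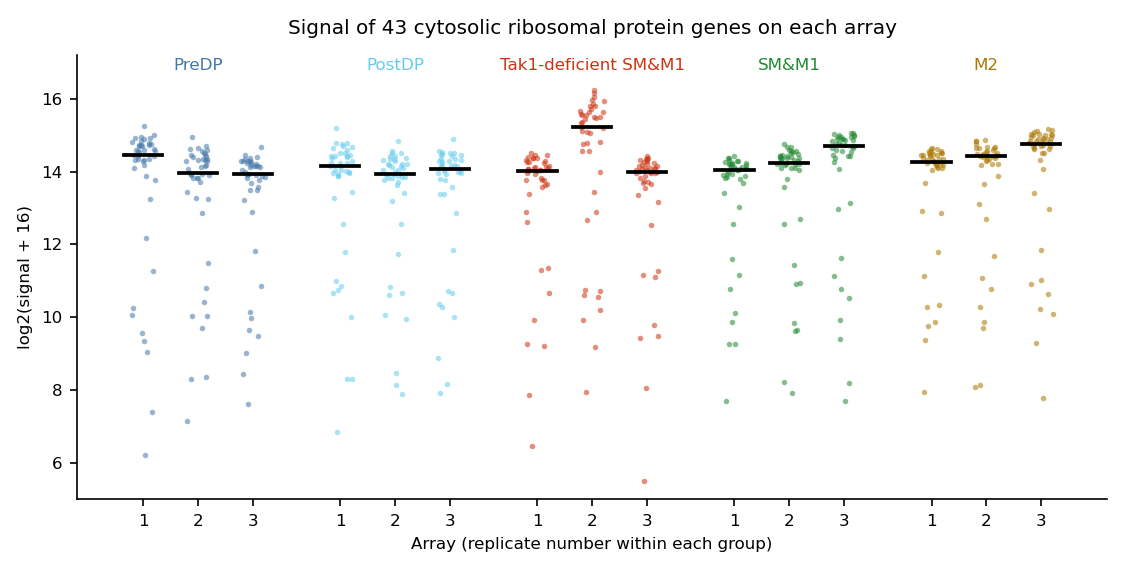
Signal, as log2(signal + 16), of the 43 tested ribosomal protein genes (points) on each of the 15 arrays, with the median over genes as a black line. Apart from M2 and PostDP, the medians of the groups overlap, and replicate 2 of Tak1-deficient SM&M1 is the highest at 15.24.

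PostDP was set against PreDP to follow the genes through positive selection. Of the 43 members 1 was called, Rpl12, which was higher in PostDP (2.33% of members, against 14.9% of all genes tested). The median difference of the members was -0.09 log2 units, with 11 of 43 positive, beside 0.01 over all genes. Its direction turned on 1 array, since without PreDP replicate 1 the median was 0.055 with 30 of 43 positive. Groups did not overlap for 3 members (6.98%, against 38.7% of all genes), Rpl12 and Rps25 being higher and Rps27l lower. In bulk samples of this kind, a change in the share of cells with a transcript and a change in RNA per cell cannot be told apart.

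Rpl12 encodes a protein at the base of the stalk. Its signal was 10.75, 10.62 and 10.73 in PostDP, against 9.35, 9.71 and 9.66 in PreDP, so that every PostDP array lay above every PreDP array. The difference was 1.13 ± 0.27 log2 units (limma, adjusted p = 0.01041), and the gene stayed near the PostDP level in SM&M1 (10.77 to 10.91). The call was kept in 26 of 28 alternative settings (adjusted p from 0.00027 to 0.256), and was lost when each array was centred on its own median or on the median of the members. Both brighter probe sets that name Rpl12 together with other genes differed by 0.085 ± 0.353 and 0.089 ± 0.349 between PostDP and PreDP, so of these 3 probe sets only the single-gene one showed the rise. Such a rise was not particular to Rpl12. With probe sets that carry no x, s or a suffix, Rps9 and Rps10 were called higher too (3 of 43, with 14.8% of all genes called). Those dimmer probe sets differed by 0.98 ± 0.18 and 0.75 ± 0.18, against -0.07 and -0.08 in the brightest ones of Rps9 and Rps10. The other dim single-gene probe sets not used for their genes (means up to 10.26), listed after their values were seen, mostly rose too. Differences were 0.57 and 0.78 for Rps20, 0.20 to 0.68 for Rps18, 0.54 and 0.61 for Rpl41, and 0.54 for Rpl35. Those of Rps24 differed by 0.56 and -0.002, and those of Rps6 and Rpl37a by -0.08 and -0.12. Those of Rps3 and Rpl22 fell, by -0.67 ± 0.26 and -0.47 ± 0.28.

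Rps25, a small subunit protein known for its part in translation from internal ribosome entry sites, had a signal of 11.00, 10.66 and 10.38 in PostDP, against 10.07, 10.04 and 9.48 in PreDP. The groups did not overlap, and the difference was 0.81 ± 0.31 log2 units (limma, adjusted p = 0.104). The replicate numbers paired these samples, since same-numbered PostDP and PreDP arrays deviated together (correlations of 0.339, 0.275 and 0.411 across genes). With the replicate block Rps25 was called too (adjusted p = 0.0121, over a range of 0.0061 to 0.582 in 28 alternatives), which made 2 members called. Its other probe set, which names several genes, differed by -0.08 ± 0.31 log2 units. Rps27l, a paralog of Rps27 known as a target of p53, had a signal of 12.55, 12.56 and 12.88 in PostDP, against 13.24, 12.88 and 12.90 in PreDP. The groups were separated by less than the spread within either, and the difference of -0.34 ± 0.18 was not called (limma, adjusted p = 0.250).

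None of the remaining members passed the test in this step. Differences of the 33 members with a mean above 13 ran from -0.26 to 0.30 log2 units, none was called, and 5 of the 33 were positive. Rpl11, which binds the p53 regulator MDM2, differed by -0.26 ± 0.22. Rplp0 and Rplp2, the stalk proteins, differed by -0.11 ± 0.31 and -0.02 ± 0.34. Rpl22, whose loss is known to arrest αβ T cell development in the mouse, differed by -0.03 ± 0.31 in its brightest probe set. The testis-enriched paralog Rpl39l differed by 0.64 ± 0.52, with PostDP (6.84, 8.14 and 7.90) and PreDP (6.21, 7.14 and 7.62) overlapping.

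Other genes of the pathway were called in this step too, and the lists were not tested against each other. Among 59 genes for ribosome assembly and RNA polymerase I, 19 were called higher and 2 lower in PostDP. Rrp12, which in yeast acts in export of both subunits, was 2.31 ± 0.21 log2 units higher (limma, adjusted p = 6.3e-06), with 8.09 ± 0.37 in PostDP against 5.78 ± 0.29 in PreDP (SD, n = 3 each). Wdr12, a large subunit assembly factor, was the largest fall of the list at -1.74 ± 0.24 (limma, adjusted p = 0.00023). The median difference of the list was 0.54 log2 units. Of 31 regulators of MYC and mTORC1 signalling, 4 were called higher and 6 lower. Rragd, a Rag GTPase that activates mTORC1 at the lysosome, fell by 2.25 ± 0.31 on the log2 scale, and Mxd3, a MAX partner, fell by 1.58 ± 0.36 (limma, adjusted p = 0.00023 and 0.0084). Myc itself, named after its value was seen, was 1.32 ± 0.20 log2 units higher (limma, adjusted p = 0.00055). One of 37 translation factors was called (Eif4g3, 0.72 ± 0.14 higher), and none of 16 other genes with a known terminal pyrimidine tract was. Of 76 mitochondrial ribosomal protein genes, 2 were higher and 2 lower. Cell cycle genes fell in the same step, with 10 of 14 called lower and none higher. Markers of B cells summed to 5397 to 5710 in PostDP, against 11884 to 13503 in PreDP, and 2 of 7 tested were called lower, Cd79b (-1.96 ± 0.45) and Ighm (-1.18 ± 0.34). Of 8 NKT and innate-like T cell markers tested, Il2rb was called higher (2.46 ± 0.21), while the sum of that list was 1187 to 1234 in PostDP, against 2988 to 4570 in PreDP. The part of cycling cells and of other cell types in the values of the ribosomal protein genes was not tested.

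**Figure D2:**
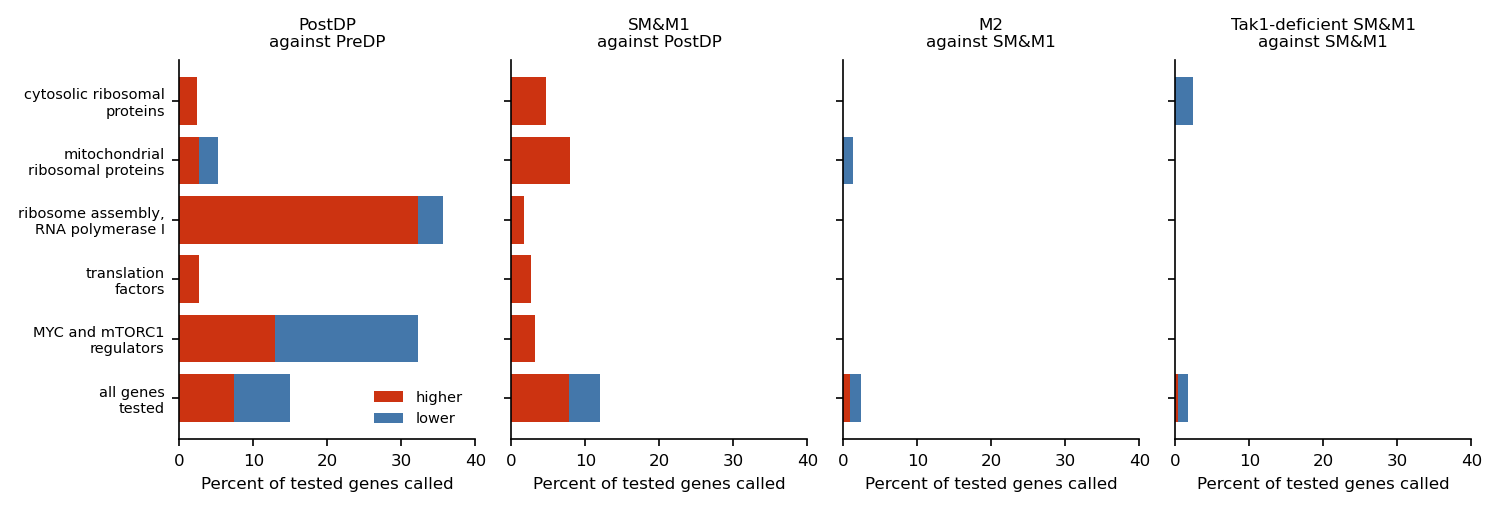
Percent of tested genes called higher (red) or lower (blue) in each comparison for 5 gene lists and for all genes tested. In PostDP against PreDP the bar of the assembly genes stands for 21 of 59 genes and that of the cytosolic ribosomal proteins for 1 of 43.

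SM&M1 was set against PostDP to follow the genes from selected double-positive to CD4 single-positive cells. Rpl14 and Rps6 rose, which is 2 of 43 members (4.65%, against 12% of all genes tested), and no member fell. Differences were mostly positive: 37 of 43, with a median of 0.18 log2 units beside 0.03 over all genes. Groups did not overlap for 10 members, all higher in SM&M1 (23.3%, against 40.9% of all genes in either direction). They were Rpl10a, Rpl12, Rpl14, Rpl27, Rpl35, Rpl37, Rps6, Rps7, Rps18 and Rps19. The median difference was 0.02 without SM&M1 replicate 3 and 0.29 without SM&M1 replicate 1, and the spread of the members' median between replicates was 0.341 (mean SD).

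Rpl14, a large subunit protein, had a signal of 9.87, 9.66 and 9.92 in SM&M1, against 8.29, 8.47 and 8.17 in PostDP. The groups lay more than 1 log2 unit apart, and the difference was 1.51 ± 0.20 (limma, adjusted p = 0.00031). All 5 probe sets that name Rpl14 with another gene were higher too, by 0.59 to 1.03 log2 units, and these are bright probe sets. The call was kept in 27 of 28 alternatives (adjusted p from 9.2e-05 to 0.0794). In M2 Rpl14 was at 9.75, 9.86 and 10.23, close to SM&M1.

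Rps6, the small subunit protein that S6 kinases phosphorylate downstream of mTORC1, had a signal of 11.61, 11.43 and 11.62 in SM&M1, against 10.87, 10.83 and 10.67 in PostDP. The groups did not overlap, and the difference was 0.77 ± 0.17 log2 units (limma, adjusted p = 0.01036). Probe sets that name Rps6 did not agree on the size. Of the 9 shared with another gene, the 4 brightest differed by -0.12 to 0.18 log2 units and the next brightest by 0.09. The 3 after those differed by 0.68 to 0.85, and the dimmest by 0.54 ± 0.33. The other single-gene probe set was dim and differed by 0.28 ± 0.27. The call was kept in 23 of 28 alternatives (adjusted p from 0.0033 to 0.617) and was lost without PostDP replicate 3 (adjusted p = 0.0513).

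Rps19, the small subunit protein mutated most often in human Diamond-Blackfan anaemia, had a signal of 14.19, 14.11 and 14.59 in SM&M1, against 13.28, 13.20 and 13.40 in PostDP. The difference of 1.004 ± 0.318 log2 units was larger than the spread within either group but missed the threshold (limma, adjusted p = 0.0584, from 0.00056 to 0.205 over 28 alternatives, 10 of which called it). Rpl37 had 12.55, 12.57 and 13.14 in SM&M1, against 11.80, 11.74 and 11.84 in PostDP, and its difference of 0.96 ± 0.33 was not called either (limma, adjusted p = 0.0845, from 0.0055 to 0.285). The 3 probe sets that name Rpl37 with another gene, 2 of them brighter, differed by 0.10 to 0.28. Rps18, which was not among the genes chosen by rule, had 14.39, 14.68 and 15.00 in SM&M1, against 14.15, 13.86 and 14.08 in PostDP. Its difference was 0.66 ± 0.34 (limma, adjusted p = 0.266), and the other bright probe sets of Rps18 differed by 0.34 and 0.54.

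The SE and the calls of the members depended on the scaling and on the arrays in the fit. After quantile normalization, which gives every array the same distribution, the SE of Rps19 was 0.15 and 9 of 43 members were called, all higher in SM&M1 (12.2% of all genes were called). They were Rpl10a, Rpl14, Rpl35, Rpl37, Rps6, Rps7, Rps15, Rps18 and Rps19. In the fit without Tak1-deficient SM&M1 replicate 2, 5 members were called (Rpl14, Rpl37, Rps6, Rps18 and Rps19), with 23% of all genes called. The median difference kept its sign after quantile normalization (0.14) and was -0.09 when each array was centred on the median of the members. That centring called 0 of 43 members (2.69% of all genes), or Rpl14 alone with the replicate block (10.4% of all genes). Centring each array on its own median called 2, Rpl14 and Rps19 (6.95% of all genes).

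Several well-known members did not differ in this step beyond their error in the probe set used. Rplp0 differed by -0.14 ± 0.31 and Rplp2 by 0.07 ± 0.34 log2 units. Rps3 differed by 0.29 ± 0.34, Rpsa by 0.33 ± 0.44 and Rpl13a, which is known for silencing of inflammatory mRNAs in human cells, by 0.08 ± 0.39. Less bright single-gene probe sets of Rpl13a differed by 0.17 ± 0.41, 0.45 ± 0.18 and 0.66 ± 0.20. A dimmer single-gene probe set of Rps3 differed by 0.61 ± 0.26. Rps4x differed by -0.03 ± 0.33 and Rpl38, known in mice for translation of Hox mRNAs, by -0.01 ± 0.37. The lowest difference was that of Rpl27a, with 9.26, 9.61 and 10.52 in SM&M1 against 10.68, 9.96 and 10.29 in PostDP, and these groups overlapped (-0.51 ± 0.36). The brighter probe set that names Rpl27a with other genes differed by 0.09 ± 0.32.

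Rpl22 depended on the probe set. Its brightest single-gene probe set differed by 0.01 ± 0.31 between SM&M1 and PostDP, the next by 0.57 ± 0.22 and the dimmest of the 3 by 1.31 ± 0.28 log2 units. With the mean of all probe sets per gene, Rpl22 was called higher in SM&M1. Its paralog Rpl22l1, which is not a member, was 0.97 ± 0.23 log2 units higher in SM&M1 (limma, adjusted p = 0.0156), with 13.86 ± 0.28 in SM&M1 against 12.89 ± 0.13 in PostDP (SD, n = 3 each). Of 50 other single-gene probe sets, from 20 members, 45 had the sign of the probe set used.

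**Figure D3:**
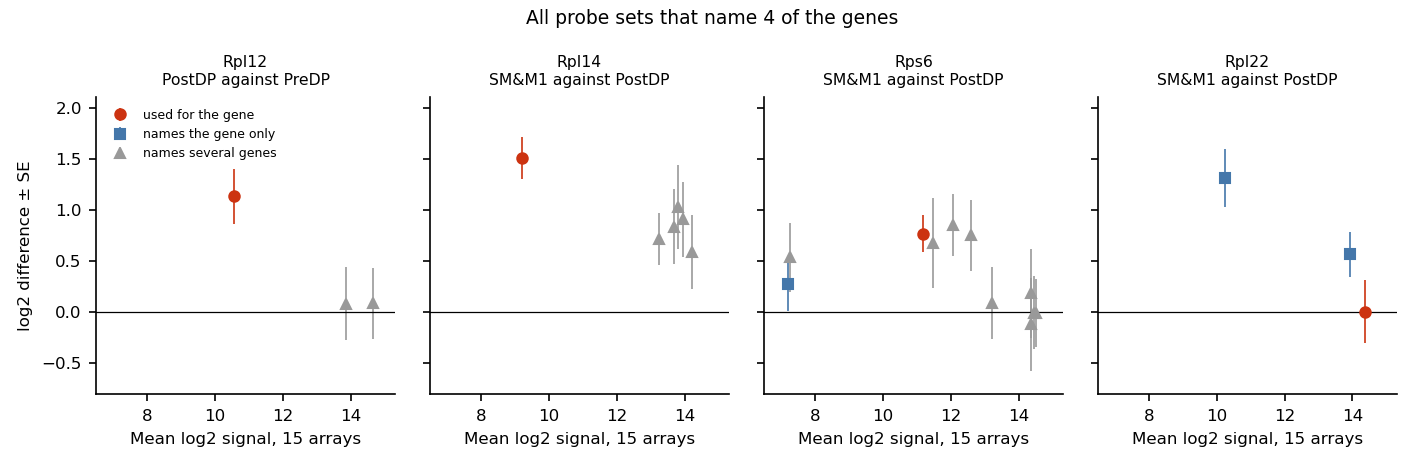
Difference ± SE (log2 units) against mean signal for every tested probe set that names Rpl12 (PostDP against PreDP), Rpl14, Rps6 or Rpl22 (SM&M1 against PostDP). Red circles are the probe sets used, blue squares other single-gene probe sets, grey triangles probe sets that name several genes. Those of Rpl14 lie between 0.59 and 1.51, those of Rpl12 between 0.08 and 1.13 and those of Rpl22 between 0.01 and 1.31. Those of Rps6 lie on both sides of 0, between -0.12 and 0.85.

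The 107 tested probe sets that name a ribosomal protein gene together with other genes had a median difference of 0.23 log2 units between SM&M1 and PostDP, with 96 positive. Of 59 assembly genes, 1 was called (Nop16, 0.78 ± 0.16 higher). Of 37 translation factors 1 was called, Eif4b (0.52 ± 0.14 higher), and Eif4b was also the called gene among 16 others with a known pyrimidine tract. Mitochondrial ribosomal protein genes had 6 of 76 called, all higher, led by Mrpl1 (0.94 ± 0.26) and Mrps34 (0.89 ± 0.19), and their median difference was 0.28. Cell cycle genes were higher in 7 of 14 cases and lower in none. Of the macrophage and monocyte markers, 1 of 8 tested was called, Ctss, which T cells also express. The summed signal of the other 13 measured ran from 749 to 3193 in SM&M1, against 854 to 1115 in PostDP. Neutrophil markers summed to 248 to 3713 in SM&M1, against 234 to 314 in PostDP, with none of 4 tested called. Among SM&M1 arrays, replicate 1 had the highest median of the neutrophil markers (7.59) and the lowest of the ribosomal protein genes. The same held for replicate 1 among M2 arrays (7.52 for the neutrophil markers). In PreDP and PostDP the array highest in neutrophil markers was neither highest nor lowest in the ribosomal protein genes. Among Tak1-deficient SM&M1 arrays, replicate 2 had the highest of both (8.60 for the neutrophil markers). Of 7 B cell markers, Cd79b and Ighm were called lower in SM&M1, and Il2rb of the NKT list was called higher (2.33 ± 0.21). No marker is at 0 on arrays of this kind, and the part of other cell types was not tested.

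M2 was set against SM&M1 to follow the last step of maturation in the thymus. No member was called among 43 by limma, against 2.33% of all genes tested, and 1 member had an unadjusted p under 0.05. The differences were small and mostly positive. They were above 0 for 40 of 43 members and for all 33 with a mean above 13, where they ran from 0.10 to 0.25 log2 units, and the median was 0.15 beside -0.01 over all genes. Groups did not overlap for 2 members, Rps6 and Rps27 (4.65%, against 23.6% of all genes).

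The replicate numbers paired M2 with SM&M1 as well, since same-numbered arrays deviated together (correlations of 0.553, 0.436 and 0.326 across genes). Within pairs the median difference of the members was 0.25, 0.11 and 0.08 log2 units. A total of 33 of 43 members were higher in M2 in all 3 pairs and none was lower in all 3, beside 24.4% of all genes higher and 27% lower. With the replicate block no member was called. The median moved with the scaling: the median difference was -0.01 after quantile normalization, with 20 of 43 members positive, and 0.11 when arrays were centred on their own median. It was -0.004 without SM&M1 replicate 1 and 0.32 without SM&M1 replicate 3.

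Rps27, a small subunit protein with a zinc finger, had the largest difference of the members in this step. Its signal was 10.28, 10.29 and 10.64 in M2, against 10.12, 9.85 and 9.39 in SM&M1, and the groups did not overlap. The difference of 0.62 ± 0.25 log2 units was not called (limma, adjusted p = 0.347, from 0.0768 to 0.9996 over 28 alternatives). This probe set was dim (mean 10.04), and the bright probe set that names Rps27 with another gene (14.32) differed by 0.20 ± 0.35. Rps6 was at 11.80, 11.69 and 11.85 in M2, against 11.61, 11.43 and 11.62 in SM&M1, a difference of 0.22 ± 0.17. Rpl37 differed by 0.38 ± 0.33 and Rpl39 by 0.37 ± 0.68, and for both the groups overlapped. A dimmer single-gene probe set of Rpl37a, singled out after its value was seen, was 1.23 ± 0.25 log2 units lower in M2, while the 2 brighter single-gene probe sets of that gene were 0.13 and 0.22 higher. No gene of the lists for assembly, translation factors, pyrimidine tracts or MYC and mTORC1 was called. Of 76 mitochondrial ribosomal protein genes, Mrps6 was called (-0.76 ± 0.18).

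**Figure D4:**
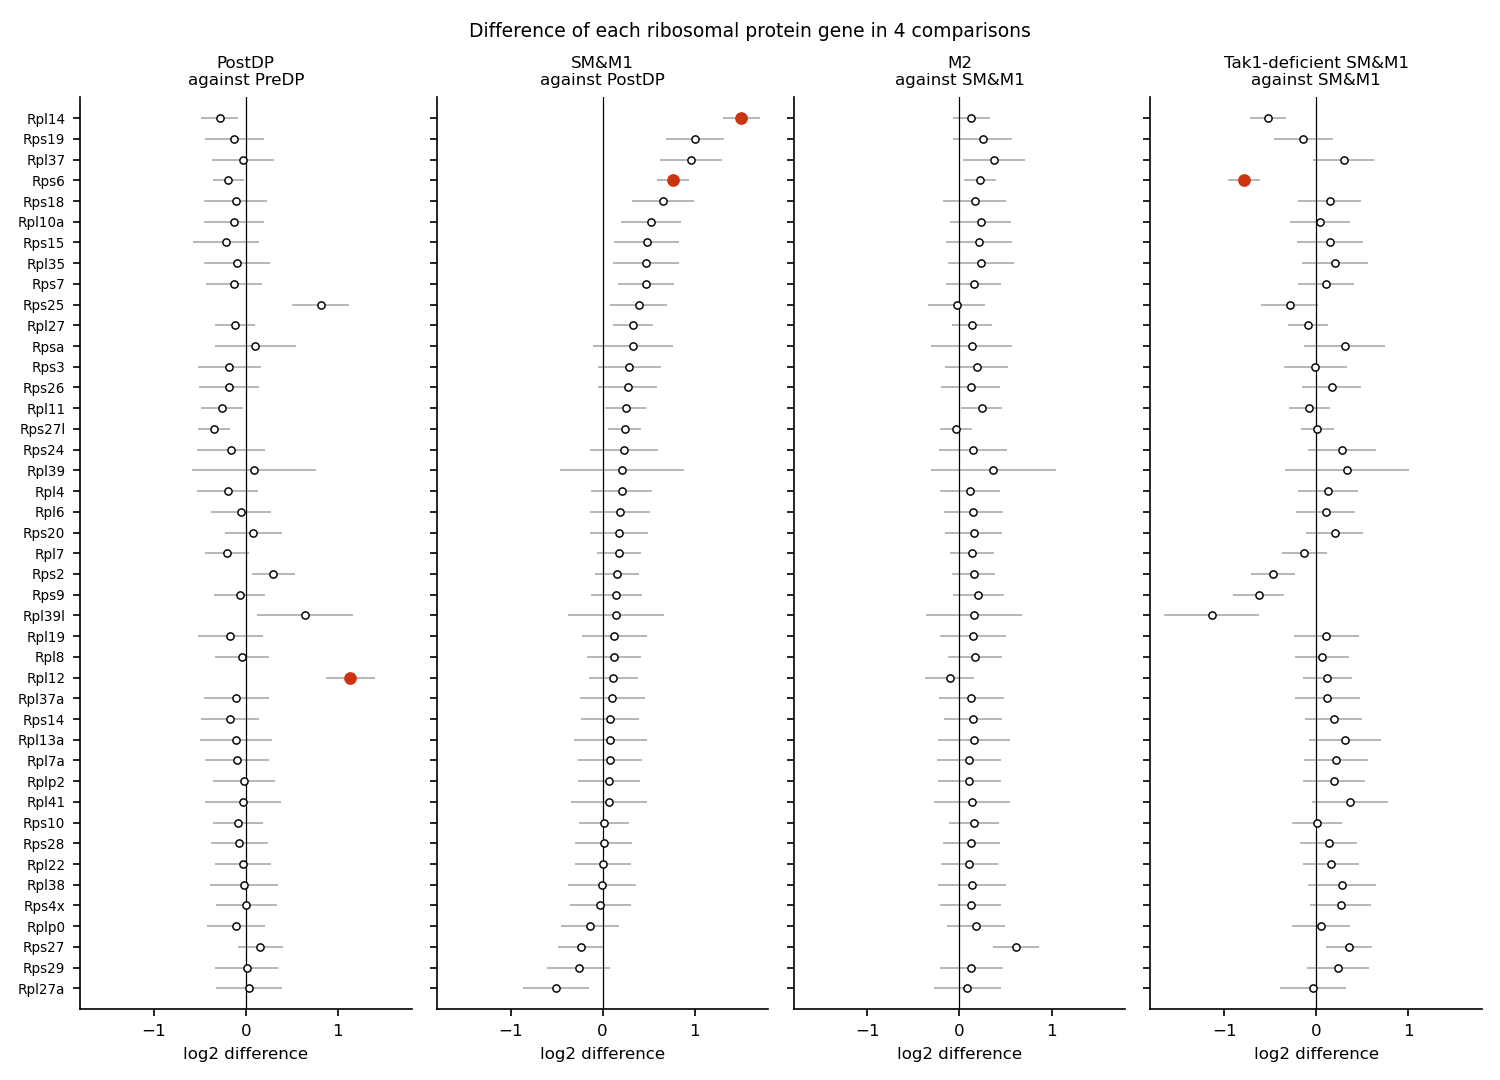
Difference ± SE (log2 units) of each of the 43 members in the 4 comparisons, in the order of SM&M1 against PostDP. Filled red points passed an adjusted p of 0.05: Rpl12, then Rpl14 and Rps6, none in M2 against SM&M1, and Rps6 in Tak1-deficient SM&M1 against SM&M1; under quantile normalization the median of the members is -0.01 in the third comparison and -0.06 in the fourth.

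Tak1-deficient SM&M1 was set against SM&M1 to ask what the loss of the kinase TAK1, which links receptors to NF-κB, does to the genes. Rps6 was the 1 member of 43 called, and it was lower (2.33%, against 1.69% of all genes tested). Groups did not overlap for 3 members, Rpl14, Rps2 and Rps6, all lower in the Tak1-deficient cells (6.98%, against 20.3% of all genes). The median difference was 0.12 log2 units, with 31 of 43 positive, beside 0.05 over all genes. This median rested on replicate 2 of the Tak1-deficient cells: without it the median was -0.31 with 4 of 43 positive, and the probe sets shared by several genes had a median of -0.31 with 11 of 107 positive. It was 0.38 without replicate 3 of the Tak1-deficient cells, -0.06 after quantile normalization and -0.03 when arrays were centred on their own median. No direction of the members as a group therefore held in this comparison.

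Rps6 had a signal of 10.66, 10.57 and 11.09 in Tak1-deficient SM&M1, against 11.61, 11.43 and 11.62 in SM&M1. The groups did not overlap, replicate 2 was not apart from the others, and the difference was -0.78 ± 0.17 log2 units (limma, adjusted p = 0.0387). The call was lost in 20 of 28 alternatives (adjusted p from 0.0182 to 0.9997), among them 13 of the 15 fits that leave out 1 array, while the difference stayed between -0.94 and -0.56. Without replicate 2 it was -0.68 (adjusted p = 0.0517). The other single-gene probe set of Rps6 differed by -0.33 ± 0.27, or -0.61 ± 0.23 without replicate 2. Of 9 probe sets that name Rps6 with another gene, 8 were positive in this comparison (up to 0.64) and 1 was at -0.57. Without replicate 2, 3 of the 9 were positive (0.03 to 0.22). The 4 brightest were then at -0.25 to -0.31, 1 at -0.12 and the dimmest at -0.70.

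Rpl14 was at 9.26, 9.18 and 9.44 in Tak1-deficient SM&M1, against 9.87, 9.66 and 9.92 in SM&M1, a difference of -0.52 ± 0.20 that was not called (limma, adjusted p = 0.204). Its 5 shared probe sets differed by 0.05 to 0.20, and by -0.30 to -0.45 without replicate 2. Rps2, a small subunit protein near the mRNA entry site, was at 13.78, 13.44 and 13.72 in Tak1-deficient SM&M1, against 13.79, 14.10 and 14.44 in SM&M1. The groups only just failed to overlap, and the difference was -0.47 ± 0.24, or -0.36 ± 0.26 without replicate 2. Both probe sets that name Rps2 with other genes were brighter and differed by 0.29 and 0.19, and by -0.33 and -0.32 without replicate 2. For Rps9 replicate 2 was low (12.89, beside 14.05 and 13.99), against 14.04, 14.21 and 14.55 in SM&M1. Its difference of -0.62 ± 0.28 was not called, and it was -0.25 ± 0.20 without replicate 2. Its other 2 probe sets differed by 0.22 and 0.35, and by -0.28 and 0.40 without that array.

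The paralog Rpl39l was at 6.45, 7.94 and 5.51 in Tak1-deficient SM&M1, against 7.71, 7.91 and 7.70 in SM&M1. The values 6.45 and 5.51 lay below the median of all probe sets on those arrays (6.90 and 6.83), the filter level. Rpl39l was thus near the floor there, while replicate 2 had a higher array median (7.52). The groups overlapped through replicate 2, and the difference was -1.14 ± 0.52 log2 units (limma, adjusted p = 0.275). Without that array it was -1.79, and Rpl39l was then the 1 member called (adjusted p = 0.0459, from 0.0459 to 0.9997 over 27 alternatives), with 2.92% of all genes called. Rpl39, its widely expressed partner, was at 7.87, 10.75 and 8.07 in Tak1-deficient SM&M1, against 9.27, 8.21 and 8.20 in SM&M1, and these groups overlapped. Its difference was 0.33 ± 0.68, or -0.60 ± 0.51 without replicate 2. The brighter probe set that names Rpl39 with another gene differed by 0.45 ± 0.42, or -0.22 ± 0.23 without that array. Rplp0 differed by 0.05 ± 0.31 with replicate 2 and by -0.30 ± 0.28 without it. Rpl22 differed by 0.16 ± 0.31 with that array and by -0.27 ± 0.21 without it, and Rps19 by -0.14 ± 0.32 and -0.61 ± 0.20.

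No gene of the lists for assembly, translation factors, pyrimidine tracts, MYC and mTORC1 or mitochondrial ribosomal proteins was called between Tak1-deficient SM&M1 and SM&M1. Cd4 was 0.92 ± 0.19 log2 units lower in the Tak1-deficient cells (limma, adjusted p = 0.0284), with 11.30 ± 0.25 against 12.22 ± 0.25 in SM&M1 (SD, n = 3 each). Cd8a was at 9.28, 10.22 and 9.38 in Tak1-deficient SM&M1, against 8.03, 7.68 and 7.65 in SM&M1, and its difference of 1.84 ± 0.43 missed the threshold (limma, adjusted p = 0.0510). Il2rb of the NKT list was called lower (-0.99 ± 0.21). Of 8 macrophage and monocyte markers tested, Ctss was called lower (-1.91 ± 0.35). The others summed to 1116 to 3844 in Tak1-deficient SM&M1, against 749 to 3193 in SM&M1, and neutrophil markers to 466 to 5175, against 248 to 3713. Markers of B cells summed to 2805 to 4638 in Tak1-deficient SM&M1, against 1467 to 4063 in SM&M1. None of 7 B cell markers and none of 4 neutrophil markers tested was called, and the part of all these markers in the values of the ribosomal protein genes, the call of Rps6 included, was not tested.

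**Figure D5:**
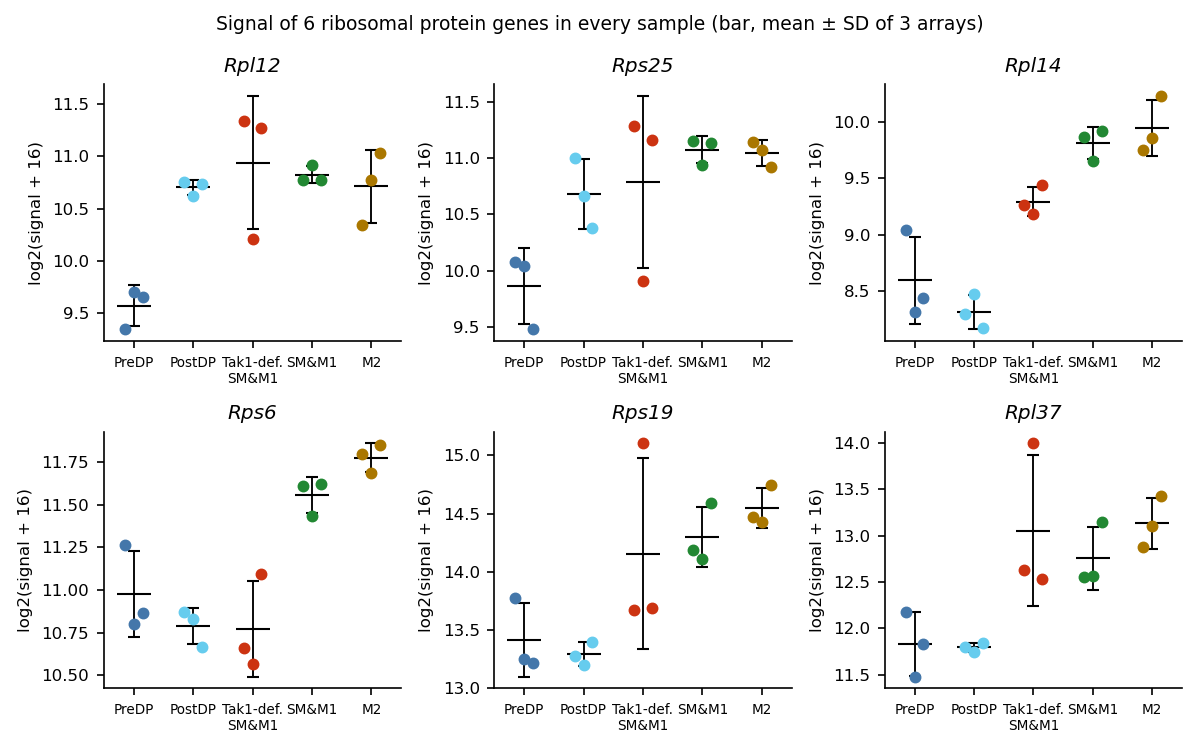
Signal, as log2(signal + 16), of Rpl12, Rps25, Rpl14, Rps6, Rps19 and Rpl37 on each of the 15 arrays, with the mean ± SD of each group. Rpl12 is higher in PostDP than in PreDP, Rpl14 lies above 9.6 in SM&M1 and below 8.5 in PostDP, and Rps6 lies below 11.1 in Tak1-deficient SM&M1 and above 11.4 in SM&M1.

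Across the 5 groups, Rpl14 had its lowest mean in PostDP (8.31) and its highest in M2 (9.95). Rps6 had its lowest means in Tak1-deficient SM&M1 (10.77) and PostDP (10.79) and its highest in M2 (11.78). For Rps6 the PostDP and Tak1-deficient SM&M1 arrays overlapped, and for Rpl14 the PreDP and PostDP arrays overlapped, as did SM&M1 and M2. Rpl12 had 9.57 ± 0.20 in PreDP and between 10.70 and 10.94 in the other 4 groups, whose arrays overlapped apart from PostDP and SM&M1, 0.12 ± 0.27 apart. The comparisons share groups, so these levels are a description and not separate evidence.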

How the data were processed

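Biotin-labelled cRNA from sorted thymocytes was hybridised to Affymetrix mouse arrays, 1 array per sample, per the labels' protocols. For 45101 probe sets on 15 arrays, the authors deposited linear intensities, whose summary algorithm is not given in the sources used here. The mean after trimming 2% at each end is 500 on every array, so the intensities were scaled before they were deposited. The number of arrays limits the precision. Values were analysed as log2(intensity + 16) without further normalization. The platform annotation gave 1 gene for 34958 probe sets, several for 932 and none for 9211. For 34754 of the first, symbols were updated by Entrez number to RefSeq (GRCm38.p6). The 4 comparisons were fitted with limma 3.58.1 (R 4.3.3) over all 15 arrays, 1 mean per group, 10 residual degrees of freedom, no block, and Benjamini-Hochberg adjustment over 11872 genes. The fit was tested on simulated data. Medians over members carry no test.

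For each comparison, members were named as called, or else as the 3 of largest change, with the stalk, MDM2-binding and alternative members, those of special interest and those of highest and lowest signal. The members and the gene lists were chosen with earlier results of these data known. Same-numbered arrays deviated together in PostDP and PreDP and in M2 and SM&M1 (correlations of at least 0.275 in every pair), and not in the other comparisons. Alternatives changed the scaling, the filter, the probe set, the pseudocount, the arrays in the fit, the block and the variance model. Centring on the members' median, with and without the block, was added after seeing the data.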

Additional observations from a re-analysis of the deposited data

How the results depend on the processing

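Call counts moved with the scaling and with the arrays that set the spread, and dim single-gene probe sets left Rps16, Rps4l and Rpl3l without a test. Between PostDP and PreDP, 0 members were called when arrays were centred on their own median or on the median of the members (2 with the added replicate block), 3 with probe sets that carry no x, s or a suffix, and 2 with the groups compared only or with the replicate block; leaving out 1 array gave 1 to 2, the 2 coming without Tak1-deficient SM&M1 replicate 2. Between SM&M1 and PostDP, 9 were called after quantile normalization, 5 with the groups compared only, 4 with the replicate block, 0 when centred on the members (1 with the block), and 1 to 5 when 1 array was left out, with the 5 coming when replicate 2 of the Tak1-deficient cells was dropped and the 1 when PostDP replicate 3 was. Between M2 and SM&M1 no alternative called a member. Between Tak1-deficient SM&M1 and SM&M1, 0 were called when arrays were centred on their own median or on the members, with the mean of all probe sets, with no filter, with the groups compared only and with the replicate block; 2 with probe sets without a suffix (Rps6 and Rps10); and 0 to 1 when 1 array was left out. The causes were not tested. The medians ran, with 1 array left out, from -0.19 to 0.05 in PostDP against PreDP (the last without PreDP replicate 1), 0.02 to 0.29 in SM&M1 against PostDP, -0.004 to 0.32 in M2 against SM&M1 and -0.31 to 0.38 in Tak1-deficient SM&M1 against SM&M1. The difference of Rps9 between Tak1-deficient SM&M1 and SM&M1 changed sign with a suffix-free probe set (0.35, adjusted p = 0.312). Centring arrays on their own median moved the median of all genes to -0.13 between PostDP and PreDP and to -0.09 between Tak1-deficient SM&M1 and SM&M1, and centring on the members moved it to -0.24 between SM&M1 and PostDP and to -0.16 between M2 and SM&M1. For single members, 314 of the alternative values kept their direction and their side of the threshold, 28 lost the call, 19 gained it and 1 changed sign. Numbers did not pair SM&M1 with PostDP or Tak1-deficient SM&M1 with SM&M1 (correlations of -0.010 to 0.124 and -0.244 to -0.174).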
